A study of Mus musculus with 56 samples.

Results

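The 46 genes described here are the translation initiation factor genes of the mouse as taken by name. They are the gene symbols that begin with Eif and a digit of 1 to 6 in both count tables of the study. Among them are genes of cap-binding inhibitors (Eif4ebp1, Eif4ebp2, Eif4ebp3 and Eif4enif1) and of eIF5A, and counts of initiation factors below include them. The 4 eIF2 kinase genes (Eif2ak1 to Eif2ak4) share the prefix and were left out by rule. So were 5 symbols with fewer than 10 counts in a table (Eif2b4, Eif2s3y, Eif3j1, Eif3j2 and Eif4e1b). Some of these are initiation factor genes, such as Eif2b4, with 0 counts in experiment 1 and 6937 in experiment 2. The tables share 19579 gene symbols in all. Each experiment of the study has its own table, and the level of a gene is given as CPM, its counts scaled to a library total of 1000000, after TMM scaling, a correction for library composition. In experiment 2, CD4 T cells from the spleen of C57BL/6 mice were activated with beads coated with antibodies to CD3 and CD28, at a starting concentration of 1000000 (high) or 62500 (low) cells per ml. They were taken at 18, 30, 48 and 72 h and sorted as CD4 positive. Cultures started at 250000 cells per ml were taken at 48 and 72 h and sorted as CD44 positive cells with or without CD62L, the lymph node homing receptor. The reference group was naive cells that had not been activated (CD44 negative, CD62L positive). In experiment 1, all cultures started at 250000 cells per ml and were sorted with or without CD62L at 48 and 72 h. Mature cells (CD62L negative, CD44 positive) and naive cells of experiment 1, neither activated, were obtained by magnetic enrichment, per the labels. No cytokine was added in any culture, and no source used here gives the age of the mice or how many stand behind a library. There are 18 libraries in 6 groups in experiment 1 and 38 libraries in 13 groups in experiment 2, with 3 libraries in each group but 1, since 72 h at low concentration has 2.

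Translation initiation brings a ribosome, the initiator tRNA and the start codon of an mRNA together. eIF4E binds the cap at the 5′ end of the mRNA, eIF4G is the scaffold that it recruits, and the helicase eIF4A unwinds the leader with help from eIF4B and eIF4H. The 4E-binding proteins (Eif4ebp1 to Eif4ebp3) block eIF4E until the kinase complex mTORC1 phosphorylates them. eIF2 carries the initiator tRNA and is recharged by its exchange factor eIF2B, a step that the eIF2 kinases shut down under stress. eIF3 is a large complex of many subunits that holds the small ribosomal subunit on the mRNA, and eIF1, eIF1A and eIF5 govern scanning and start codon choice. eIF5B joins the subunits, eIF6 keeps the large subunit apart until it is needed, and eIF5A, named as an initiation factor, mainly assists elongation. Activated T cells leave quiescence with a steep rise in protein synthesis.

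The libraries held 58750 to 1738555 counts in experiment 1 and 587118 to 3359875 in experiment 2, and the 46 genes took 0.797 to 1.87% and 0.753 to 1.995% of them. A CPM value is a share of the captured RNA: libraries were made from amounts matched on beta-actin, so a change in total RNA per cell is not visible. In these bulk samples, fewer cells of a kind and less RNA per cell cannot be told apart. Summed markers of CD4 T cells reached 1835 to 4995 CPM in all libraries. In experiment 1 the magnetically enriched naive and mature cells also held other cells: B-cell markers summed to 817 to 1293 CPM in naive and 487 to 548 CPM in mature cells, against 5.38 to 16.2 CPM in the sorted activated cells, and myeloid markers to 511 to 949 and 92.8 to 125 CPM, against 6.07 to 57.5 CPM. Markers of CD8 T and NK cells summed to 170 to 332 CPM in naive and 214 to 241 CPM in mature cells, against 24.3 to 65.5 CPM. Red-cell markers summed to 155 to 477 CPM in naive and 21.6 to 34.8 CPM in mature cells, against 7.37 to 52.2 CPM. In experiment 2 B-cell markers stayed at or under 14.8 CPM, with 3 of the 6 (Ms4a1, Pax5 and Blk) at 0 in every library, and myeloid markers at or under 27.9 CPM. The sample titles of experiment 2 hold a further figure of 1 or 2, called the second title number here, which no source used here explains. It is 1 in all naive and 18 h libraries and 2 in all 30 h libraries. At 48 h it is 2 in all libraries of the high concentration, and 2 in replicate 1 and 1 in the others of the low. At 72 h it is 1 in all libraries of the high concentration and 2 in all of the low. It thus follows the groups fully at 30 h against 18 h, at 72 h against 48 h at high concentration, and between concentrations at 72 h. Results that depend on it are named below. The labels do not say that libraries of a group came from separate mice or cultures, so the p-values reflect library-to-library spread alone, which may be technical. Genes that share reads with a close copy (Eif1a with Eif1ax, Eif4a1 with Eif4a2, Eif5a with Eif5a2) are uncertain to the extent that the counting split such reads.

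Most initiation factors were higher 18 h after activation than in naive cells. Of the 43 genes tested in experiment 2, 33 rose and 4 fell, while 32.3% of all genes tested rose and 33.6% fell (65.9% passed in either direction; edgeR's quasi-likelihood test with Benjamini-Hochberg adjustment over 9239 genes, mean of both concentrations against naive). The median log2 difference was 1.24 for the 43 genes and 0 for all genes. The set was not raised as a block, since Eif3e, Eif3f, Eif3h and Eif3k of the eIF3 complex, the 4E-binding protein gene Eif4ebp2 and the scaffold gene Eif4g3 did not pass.

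The cap-binding protein gene Eif4e had one of the largest rises. It stood at 58.5, 52.1 and 43.9 CPM in high-concentration and 52.0, 35.7 and 53.4 CPM in low-concentration cultures at 18 h, against 5.83, 1.24 and 5.39 CPM in naive cells (log2 difference 3.52 ± 0.42 SE, adjusted p = 1.57e-09). Every 18 h library lay above every naive library. Eif5a, the most abundant of the 46 genes with 23.6% of their counts in experiment 2, reached 5541, 5272 and 6261 CPM at high and 6568, 5943 and 6378 CPM at low concentration, against 1479, 1252 and 1159 CPM in naive cells (2.21 ± 0.12, adjusted p = 4.34e-22). Eif4a1, the main helicase gene, reached 649.5, 722 and 650.1 CPM at high and 516, 703 and 605 CPM at low concentration, against 170.1, 145 and 183 CPM in naive cells (1.95 ± 0.14, adjusted p = 2.28e-17). For both genes the groups were apart. The close relative Eif4a2 stood at 70.6, 39.3 and 46.9 CPM at high and 71.3, 47.3 and 42.7 CPM at low concentration, against 84.8, 85.6 and 50.03 CPM in naive cells. The Eif4a2 groups overlapped, and its call (-0.48 ± 0.20, adjusted p = 0.0348) ended without low-count filtering and when any of 6 libraries was left out.

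**Figure D1:**
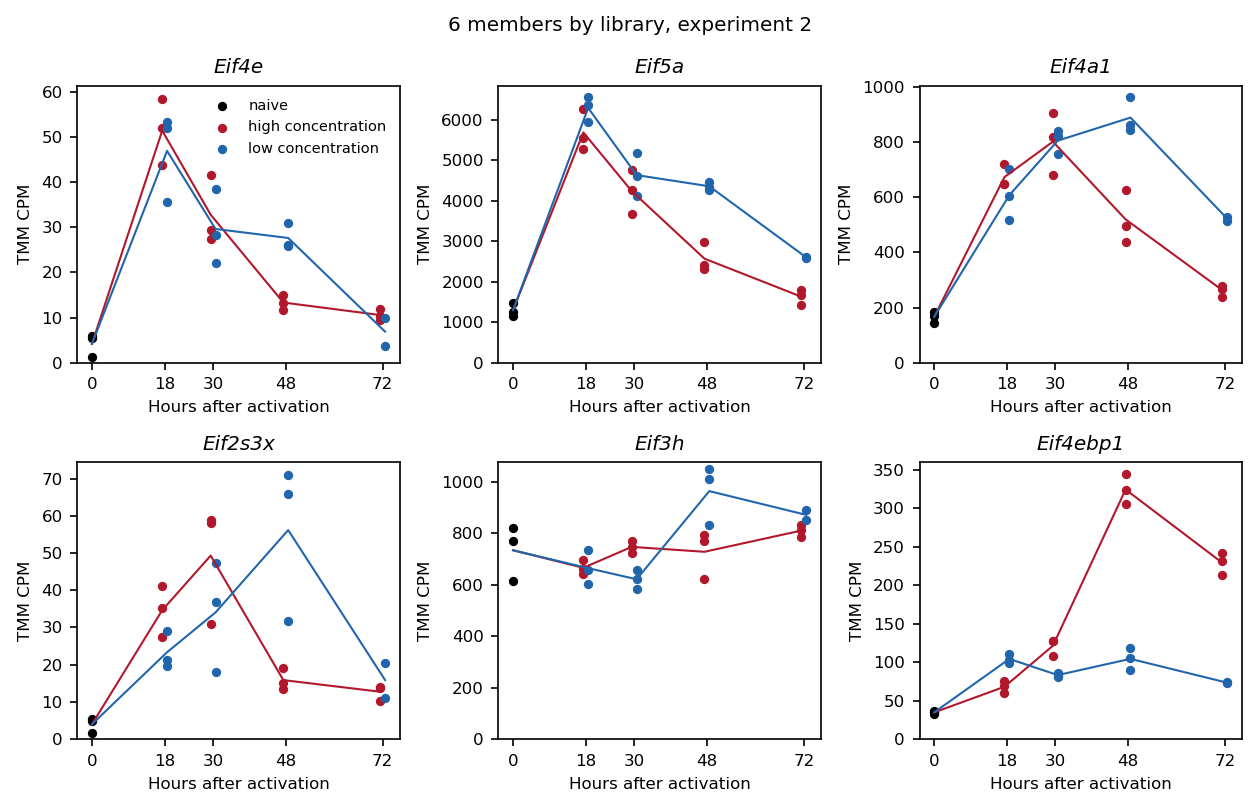
TMM CPM of 6 initiation factor genes in each library of experiment 2 (points) against hours after activation, with lines through the group means of the high (red) and low (blue) concentration and naive cells at 0 h in black. Eif4e, Eif5a and Eif4a1 lie far above naive at 18 h and lower at high than at low concentration at 48 h, while Eif4ebp1 reaches 305 to 344 CPM at 48 h at high concentration, against 89.3 to 118 CPM at low.

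The promoters of these 4 genes are shown because a canonical E-box, the sequence bound by Myc with its partner Max and a known feature of growth genes, lies in some of them and not in others. Each runs from 250 bases before to 50 after an annotated RefSeq start (build GRCm38.p6, which is not the build mm9 of the counts), with every CACGTG in capitals. Eif4e lies at chr3:138527018-138527317 on the plus strand, Eif5a at chr11:69921337-69921636 and Eif4a1 at chr11:69672374-69672673 on the minus strand, and Eif4a2 at chr16:23107218-23107517 on the plus strand.
Eif4e: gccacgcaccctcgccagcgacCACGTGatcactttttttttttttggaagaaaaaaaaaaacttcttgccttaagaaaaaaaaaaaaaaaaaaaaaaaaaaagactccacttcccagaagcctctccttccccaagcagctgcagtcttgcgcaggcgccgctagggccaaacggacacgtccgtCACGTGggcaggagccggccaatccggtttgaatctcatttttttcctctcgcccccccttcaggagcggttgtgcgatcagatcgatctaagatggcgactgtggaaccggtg
Eif5a: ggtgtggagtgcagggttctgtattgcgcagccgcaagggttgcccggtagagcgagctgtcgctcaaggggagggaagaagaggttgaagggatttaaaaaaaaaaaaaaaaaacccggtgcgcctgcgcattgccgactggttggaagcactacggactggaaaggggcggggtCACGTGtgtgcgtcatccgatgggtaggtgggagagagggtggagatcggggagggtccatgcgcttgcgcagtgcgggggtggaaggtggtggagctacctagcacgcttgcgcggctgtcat
Eif4a1: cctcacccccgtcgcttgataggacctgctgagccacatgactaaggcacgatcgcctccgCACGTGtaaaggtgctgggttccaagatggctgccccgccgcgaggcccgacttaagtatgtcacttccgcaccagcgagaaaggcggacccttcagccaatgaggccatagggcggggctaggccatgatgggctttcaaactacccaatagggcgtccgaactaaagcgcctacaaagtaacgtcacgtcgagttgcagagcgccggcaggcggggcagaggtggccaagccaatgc
Eif4a2: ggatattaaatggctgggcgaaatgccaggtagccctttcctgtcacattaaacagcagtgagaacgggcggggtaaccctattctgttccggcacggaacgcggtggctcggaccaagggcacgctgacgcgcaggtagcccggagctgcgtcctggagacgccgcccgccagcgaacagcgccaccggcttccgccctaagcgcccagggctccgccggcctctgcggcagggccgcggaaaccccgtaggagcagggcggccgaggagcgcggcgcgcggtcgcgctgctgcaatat
The Eif4e window holds the motif at positions -228 and -64 from the start, Eif5a at -74 and Eif4a1 at -189, and the Eif4a2 window has none. Eif4e has a second annotated start without it, and 3 of the 6 annotated starts of Eif5a hold it. CACGTG reads the same on both strands. Of the 36 initiation factor genes with a promoter in the table, 10 (27.8%) hold it at any start, against 8.09% of all 27025 genes. The 27025 were not limited to genes expressed in these cells. The 10 are Eif1b, Eif3a, Eif3f, Eif3k, Eif4a1, Eif4e, Eif4g1, Eif4h, Eif5a and Eif5a2. At 18 h 8 of these 10 rose, with a median log2 difference of 1.33, and of the 24 tested genes without it 20 rose and 2 fell, with a median of 1.13. Genes with and without the motif thus had near medians at 18 h, and a match is a description of the letters, not of binding.

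Genes for the start site and the initiator tRNA rose without exception at 18 h. All 6 of the scanning group and all 4 tested of the group of eIF2 and initiator tRNA passed. Their levels ranged widely, with Eif2s2 at 0 to 2.12 CPM and Eif1 at 562 to 799.5 CPM in naive cells. Eif1ax, one of the eIF1A genes, had 404, 402 and 425 CPM at high and 426, 361 and 366 CPM at low concentration, against 85.3, 107 and 77.0 CPM in naive cells (2.14 ± 0.15, adjusted p = 1.51e-17). Eif2s3x, the X-linked gene of the gamma subunit of eIF2, had 35.3, 41.1 and 27.5 CPM at high and 29.0, 19.7 and 21.3 CPM at low concentration, against 1.59, 4.96 and 5.39 CPM in naive cells (2.87 ± 0.40, adjusted p = 2.18e-08). The 18 h and naive libraries did not overlap for either gene. Eif1a (log2 difference 3.54), the beta subunit gene Eif2s2 (3.00) and Eif2a (2.09), an alternative carrier of initiator tRNA, rose too, as did the abundant Eif1 (0.50). The alpha subunit gene Eif2s1 was nearly absent from this table, with 7 counts over the 6 libraries of 18 h and 0 in naive cells, and was not tested.

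Of the eIF2B genes, Eif2b3 (2.68), Eif2b5 (1.41) and Eif2b1 (1.27) rose and Eif2b2 fell (-0.48), so subunits of 1 complex moved apart. In the eIF3 complex 8 of 12 genes rose, from 0.82 for Eif3g and Eif3m to 1.66 for Eif3c, and none fell. Of the 4 that did not pass, Eif3f, Eif3h and Eif3k had the highest naive levels of the complex in CPM and Eif3e a lower one (not divided by gene length, since the libraries read 3′ ends). Eif3h had 662.5, 695 and 640.4 CPM at high and 735, 602 and 656 CPM at low concentration, against 819, 769 and 614 CPM in naive cells, a log2 difference of -0.14 ± 0.11, and the groups overlapped. The 4E-binding protein genes split: Eif4ebp1 rose (1.28 ± 0.15, adjusted p = 1.92e-10), Eif4ebp2 stood at 0.04 ± 0.24 and Eif4ebp3 fell (-0.97 ± 0.18, adjusted p = 4.88e-06). Eif4e3, a cap-binding relative of Eif4e, also fell (-1.70 ± 0.36, adjusted p = 5.55e-05), from low levels that overlapped between the groups (2.91 to 7.31 CPM at 18 h, against 5.30, 24.8 and 21.6 CPM in naive cells).

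Genes that work beside the initiation factors were counted in 4 lists, to be read against the 32.3% of all genes that rose at 18 h and the 33.6% that fell. Of 11 tested helpers outside the Eif names, 7 rose at 18 h and none fell, among them the poly(A)-binding protein gene Pabpc4 (2.10 ± 0.25), the ribosome recycling factor gene Abce1 (1.87 ± 0.37) and Dohh (1.54 ± 0.19), whose enzyme completes the hypusine residue of eIF5A. Of 9 elongation and termination factors 6 rose and none fell, with Etf1, the release factor gene, at 1.57 ± 0.17. Of 13 genes of mTORC1 and its targets 1 rose (Larp1, 1.42 ± 0.16) and 6 fell, including the eIF4A inhibitor gene Pdcd4 (-1.63 ± 0.21). Of 11 genes of the eIF2 stress arm 2 rose, the kinase gene Eif2ak4 (2.86 ± 0.45) and Atf4 (0.68 ± 0.11), and 5 fell, among them Ppp1r15a (-2.77 ± 0.24), a phosphatase subunit gene, and Ddit3 (-2.31 ± 0.18). In either direction 7 of 11, 6 of 9, 7 of 13 and 7 of 11 of the lists were called, in the order given. Each share is near or under the 65.9% of all genes, so the first 2 lists differ from all genes in direction only.

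**Figure D2:**
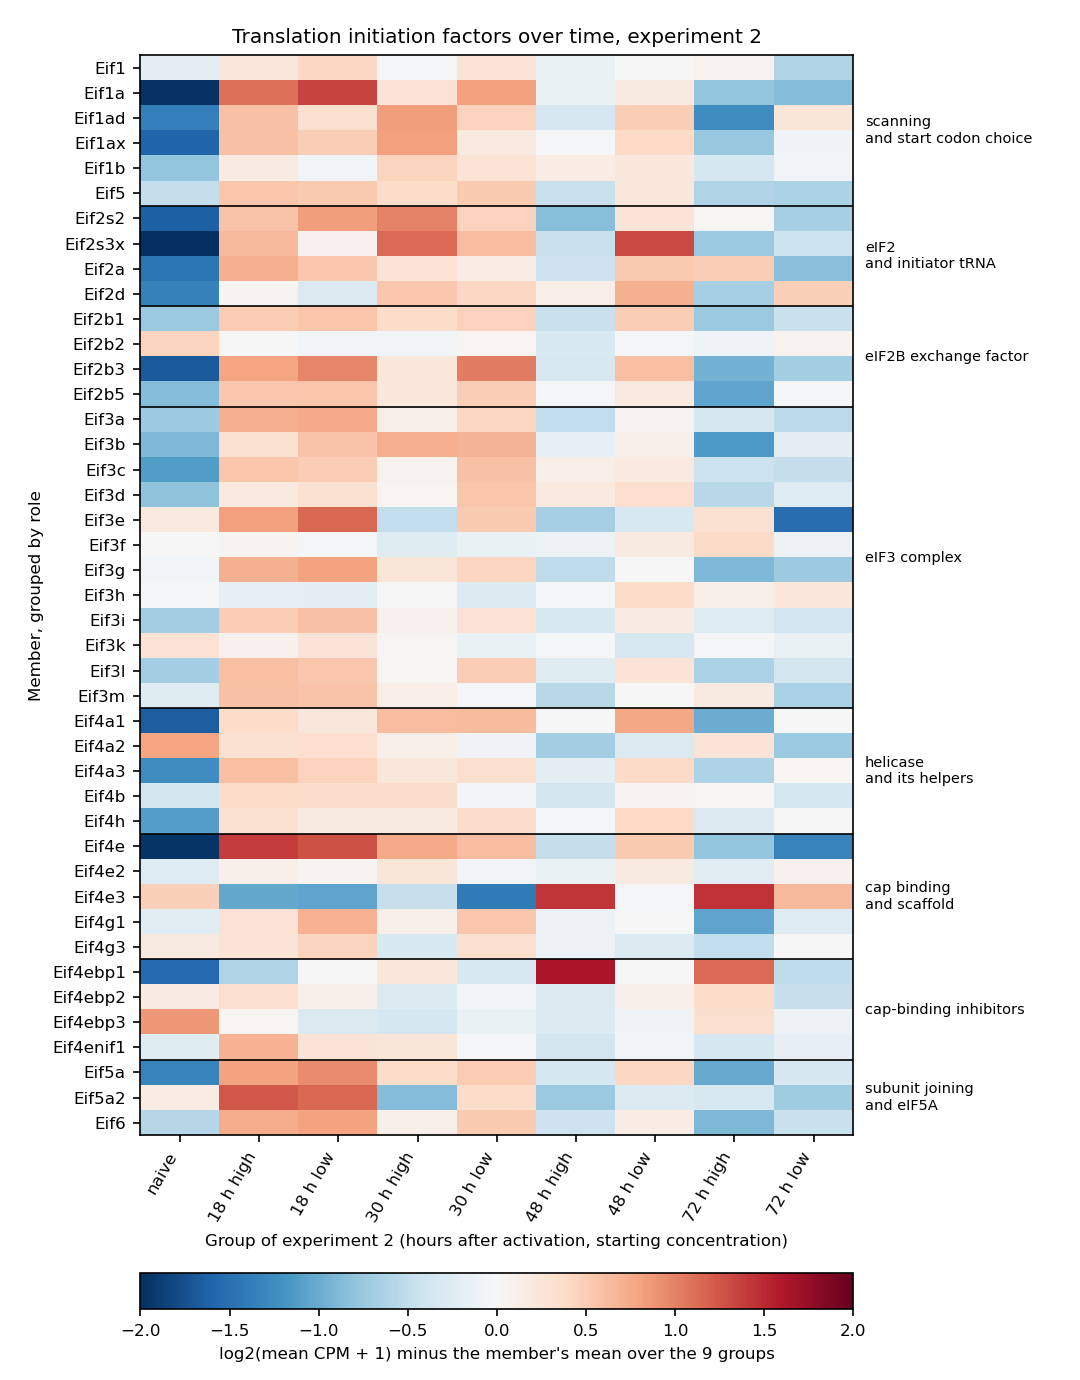
Heat map of the 43 tested genes (rows, by role) in naive cells and at each time and concentration of experiment 2 (columns), coloured by log2(mean CPM + 1) minus the gene's mean over the 9 groups and clipped at 2 in both directions. Most rows are blue in naive cells, red at 18 h and pale or blue again at 48 h high and at 72 h, with Eif4e3 and Eif4ebp1 at their reddest at 48 and 72 h high.

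The high level did not last. At 72 h, 33 of the 43 genes were lower and 3 higher than at 18 h over both concentrations, while 28.0% of all genes fell and 31.8% rose (59.9% in either direction), and the median log2 difference was -0.83 for the 43 genes and 0.03 for all. Eif5a (-1.54 ± 0.10, adjusted p = 1.54e-19), Eif3g (-1.57 ± 0.10, adjusted p = 5.58e-20) and Eif4e (-2.50 ± 0.32, adjusted p = 9.56e-09) were among the falls. Eif4e3 (2.33 ± 0.31), Eif4ebp1 (0.62 ± 0.12) and Eif3h (0.34 ± 0.09) rose. The helpers followed, with 9 of 11 lower and none higher, and of the elongation and termination factors 7 of 9 were lower. Of the 11 genes of the stress arm 4 were higher and 2 lower at 72 h than at 18 h. The 6 of 11 called is no more than the 59.9% of all genes. Of the 13 mTORC1 genes 5 were higher and 5 lower. Trib3 (4.57 ± 0.34) and Ddit3 (1.52 ± 0.18) of the stress arm, which had fallen at 18 h, were among the higher genes, as was Pdcd4 (1.84 ± 0.19) of the mTORC1 list.

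The time of the fall differed with the concentration. From 18 to 30 h, over both concentrations, 12 genes fell and 3 rose (10.6% and 13.9% of all genes, 24.6% in either direction), and with the second title number as a term 3 fell and 1 rose. Without replicate 2 of the low concentration at 18 h, 9 passed. From 30 to 48 h at high concentration 21 fell and 2 rose (13.3% and 16.7% of all genes, 30.1% in either direction), whereas at low concentration 3 fell and 2 rose (3.55% and 5.71%, 9.27% in either direction). The fall at low concentration came from 48 to 72 h, where 20 fell and none rose (11.6% and 14.2% of all genes, 25.8% in either direction), while at high concentration 14 fell and 5 rose (12.0% and 11.5% of all genes, 23.5% in either direction, and 8 fell and 1 rose with the second title number as a term). The 2 libraries of the low concentration at 72 h carry much of that count, with 12 passing without replicate 1 and 13 without replicate 2. For the low concentration from 30 to 48 h, 3 passed without any 1 of 4 libraries.

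The difference between the concentrations was tested itself. Over the 4 times, the high minus low difference changed for 21 of the 43 genes, against 30.6% of all genes. Between 30 and 48 h it became lower for 10 genes and higher for 2 (6.71% and 6.2% of all genes, 12.9% in either direction), and between 48 and 72 h higher for 7 and lower for 1 (4.68% and 7.86%, 12.5% in either direction). The tests of these 2 steps were added after the data were seen. With the second title number as a term the change from 48 to 72 h passed for 3 genes in place of 8, and its count ranged from 4 to 14 as single libraries were left out (4 without the low concentration's replicate 2 at 72 h, 14 without the high concentration's replicate 3 at 48 h). Averaged over the times, 15 genes were lower and 2 higher at high concentration (9.97% and 10.5% of all genes, 20.5% in either direction).

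Markers of CD8 T and NK cells also stood higher at high concentration, with 2 of the 6 (Ncr1 and Klrb1c) at 0 in every library of experiment 2. They summed to 68.9 to 99.0 CPM at high concentration, against 45.9 to 61.1 CPM at low, at 18 h, and to 40.5 to 63.3 CPM, against 31.4 to 37.7 CPM, at 30 h. At 48 h they summed to 22.6 to 34.3 CPM at high concentration, against 16.4 to 23.4 CPM at low, and at 72 h to 32.75 to 38.7 CPM, against 15.3 to 17.1 CPM. The ranges overlapped at 48 h alone, and the part of such cells in the differences below was not tested.

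At 18 h and 30 h few genes differed between the concentrations. At 18 h 1 gene was lower and none higher at high concentration (0.725% and 1.15% of all genes, 1.87% in either direction). At 30 h Eif3c, Eif2b3 and Eif4g3 were lower and Eif1ax and Eif4ebp1 higher, 5 in all (3.91% and 4.63% of all genes, 8.54% in either direction). Leaving out replicate 1 at 30 h left 3 calls (high concentration) and 2 (low). At 48 h 20 genes were lower and 2 higher (12.1% and 13.9% of all genes, 26.0% in either direction), with a median log2 difference of -0.41, against 0.04 for all genes. Eif5a had 2302, 2422 and 2985 CPM at high concentration, against 4271, 4335 and 4470 CPM at low (-0.76 ± 0.12, adjusted p = 3.48e-06). Eif4a1 had 497, 436 and 627.5 CPM at high concentration, against 862, 964 and 844 CPM at low (-0.78 ± 0.14, adjusted p = 3.72e-05). Eif2s3x had 15.1, 19.1 and 13.4 CPM at high concentration, against 31.7, 70.9 and 66.0 CPM at low (-1.80 ± 0.31, adjusted p = 1.13e-05). Eif2b1, of the exchange factor, had 103, 114.8 and 115 CPM at high concentration, against 193, 222 and 227 CPM at low (-0.94 ± 0.15, adjusted p = 3.6e-06). The libraries of the groups did not overlap in any of the 4. Other genes lower at 48 h came from every role except the 4E-binding proteins. They included Eif2b3 (-0.96) of the exchange factor and Eif2a (-0.94), an alternative carrier of initiator tRNA. Eif3g (-0.52) and Eif3i (-0.47) of eIF3, Eif4a3 (-0.56), Eif5 (-0.67) and Eif6 (-0.57) were lower too. Eif4e (-1.02 ± 0.38, adjusted p = 0.0404) passed as well, at 13.3, 15.0 and 11.7 CPM at high concentration, against 26.0, 26.0 and 31.0 CPM at low, and this call ended with the second title number as a term and without any 1 of the 6 libraries.

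**Figure D3:**
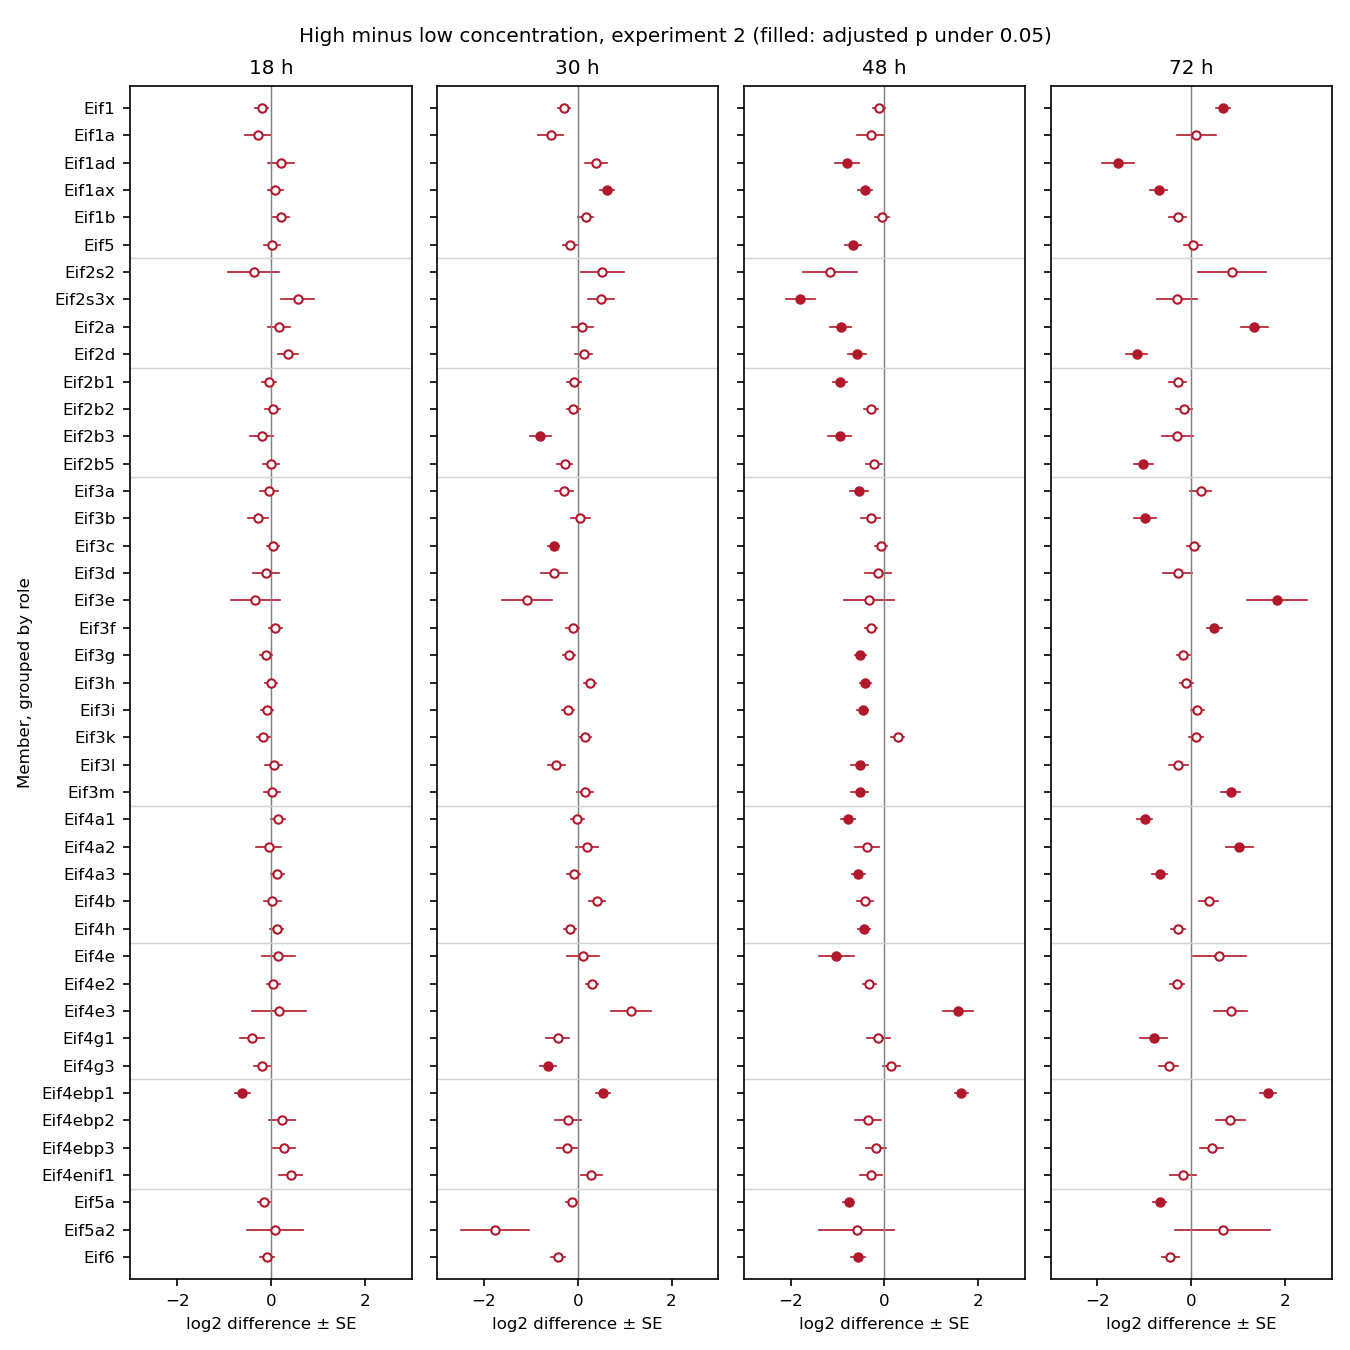
Log2 difference between the high and the low concentration (points, ± SE) for the 43 tested genes at 18, 30, 48 and 72 h of experiment 2, with filled points past the test. Differences lie near 0 at 18 h, lean to lower values at 48 h (20 lower, 2 higher) and spread to both sides at 72 h (9 lower, 7 higher), and Eif4ebp1 passes at every time.

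Eif4ebp1, which encodes the repressor 4E-BP1, ran the other way from most of these genes. Its levels in naive cells were 32.85, 36.6 and 34.6 CPM. At 18 h it had 68.8, 60.3 and 75.1 CPM at high concentration, against 111, 98.3 and 103 CPM at low (-0.61 ± 0.16, adjusted p = 0.0313). At 30 h it had 128, 128 and 108.5 CPM at high concentration, against 86.1, 80.8 and 82.6 CPM at low (0.54 ± 0.15, adjusted p = 0.0122). The sign had thus turned by 30 h. Eif4ebp1 was among the 7 of 43 genes with no overlap at 18 h and the 16 of 43 at 30 h. At 48 h it had 344, 305 and 324 CPM at high concentration, against 118, 89.3 and 106 CPM at low (1.64 ± 0.14, adjusted p = 3.09e-13). At 72 h it had 231, 242 and 214 CPM at high concentration, against 72.9 and 73.6 CPM at low (1.64 ± 0.17, adjusted p = 1.64e-10). The rise at high concentration from 30 to 48 h (1.42 ± 0.14) was larger by 1.10 ± 0.20 than the difference at low concentration (adjusted p = 0.000134). The call at 18 h ended without low-count filtering and when single libraries were left out, and that at 30 h ended without replicate 1 or 2 of the high concentration, while those at 48 and 72 h held under all alternatives run. Of the other repressors, Eif4ebp2 and Eif4ebp3 passed at none of the 4 times.

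At 72 h the initiation factors were split by concentration in both directions, with 9 lower and 7 higher at high concentration (13.5% and 13.0% of all genes, 26.5% in either direction). Eif4a1 was lower at 239.5, 279.7 and 268 CPM at high concentration, against 529 and 515 CPM at low (-0.99 ± 0.16, adjusted p = 5.53e-06), while Eif4a2 was higher at 54.6, 43.8 and 53.5 CPM, against 22.9 and 26.8 CPM (1.02 ± 0.29, adjusted p = 0.00726, a call that ended without replicate 2 of the low concentration). The helicase paralogs lay on opposite sides of the comparison. Both were among the 32 of 43 genes with no overlap between the concentrations at 72 h. Also lower were Eif1ad (-1.57), Eif2d (-1.17), a release and initiation factor gene, Eif2b5 (-1.02), Eif3b (-0.99), Eif4g1 (-0.80), Eif1ax (-0.69), Eif5a (-0.68) and Eif4a3 (-0.67). Eif2a turned round: it was lower at 48 h, at 69.0, 69.0 and 36.8 CPM at high concentration, against 95.1, 119.7 and 126 CPM at low (-0.94 ± 0.23, adjusted p = 0.00192), and higher at 72 h, at 117, 86.7 and 126 CPM, against 45.3 and 41.2 CPM (1.34 ± 0.28, adjusted p = 0.000284). The change between these times was 2.28 ± 0.36 (adjusted p = 1.71e-05). Over the same step the second title number went from 2 to 1 in all high-concentration libraries. In the low ones it went from 2 in replicate 1 alone to 2 in all. Also higher at 72 h were Eif1 (0.67) and the eIF3 genes Eif3e (1.83), Eif3m (0.84) and Eif3f (0.49). Eif3e had 307, 185 and 221 CPM at high concentration, against 95.3 and 38.0 CPM at low. Its libraries also varied widely within groups. They had 287, 59.9 and 63.4 CPM at 30 h at high concentration, and 52.0, 239 and 173 CPM at 48 h at low. The calls of Eif3b, Eif3e, Eif3f and Eif4g1 ended with the second title number as a term, which follows the concentration at 72 h.

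Eif4e3 was the other gene higher at high concentration at 48 h. It had 30.9, 44.0 and 28.4 CPM at high concentration, against 13.0, 10.4 and 12.05 CPM at low (1.56 ± 0.32, adjusted p = 0.00013). From 30 to 48 h it rose at both concentrations (2.01 ± 0.33 at high and 1.59 ± 0.41 at low), the second of which did not pass without replicate 3 of the low concentration at 30 h, and these differences were apart by 0.43 ± 0.56, which did not pass. The lists of other genes are read against 13.9% of all genes higher and 12.1% lower at 48 h, and 13.0% higher and 13.5% lower at 72 h. Trib3 (3.41 ± 0.28), Ddit3 (2.66 ± 0.21) and Ppp1r15a (1.85 ± 0.31) of the stress arm were higher at high concentration at 48 h, 3 of 11 with none lower, a share near the 26.0% of all genes called in either direction, and at 72 h 5 of 11 were higher and none lower, now with Atf4 (0.41 ± 0.14) and Eif2ak4 (1.35 ± 0.49). Of the 11 helpers 5 were lower at 48 h and none higher, among them Dhps (-0.86 ± 0.19), whose enzyme begins hypusine formation on eIF5A, and Pabpc4 (-1.16 ± 0.25). At 72 h 3 of the helpers were lower and 2 higher. Of the 13 mTORC1 genes 1 was higher and 1 lower at 48 h, and 2 were lower and none higher at 72 h.

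Where CD62L positive and negative cells differed, levels were mostly lower in CD62L positive cells. In experiment 1 at 72 h 13 of 44 genes were lower and none higher (10.9% and 8.91% of all genes, 19.8% in either direction). Eif4ebp1 had 124, 129 and 137 CPM in positive cells, against 257, 274 and 253 CPM in negative cells (-1.01 ± 0.15, adjusted p = 8.86e-06). Eif5a had 1960, 2029 and 2215 CPM in positive cells, against 3134, 3293 and 3126 CPM in negative cells (-0.62 ± 0.13, adjusted p = 0.000448). The groups were apart for both genes, as they were for Eif4a1 (-0.64 ± 0.12) and Eif1ax (-0.78 ± 0.14). The count fell to 6, 7, 7 and 8 without negative replicate 1, positive replicate 1, positive replicate 2 and negative replicate 2, and with these 2 groups fitted alone 5 were lower and 3 higher. In the elongation list, Eef1a1 was higher in positive cells (0.47 ± 0.13), with Etf1 (-0.52 ± 0.13) and Eef1e1 (-0.83 ± 0.18) lower.

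In experiment 2, sorted on CD44 as well, 1 gene was lower and none higher at 72 h (0.877% and 0.682% of all genes, 1.56% in either direction). This was Eif5a, at 1602, 1511 and 1490 CPM in positive cells, against 2061, 2299 and 1997 CPM in negative cells (-0.47 ± 0.12, adjusted p = 0.036), with no overlap. Its call ended without any 1 of 5 of the 6 libraries. At 48 h 8 genes were lower and 1 higher in experiment 2 (7.28% and 7.23% of all genes, 14.5% in either direction), among them Eif3g at 411, 407 and 392.5 CPM in positive cells, against 548, 595 and 520.0 CPM in negative cells (-0.46 ± 0.12, adjusted p = 0.00709), and Eif4ebp1 at 96.9, 93.6 and 83.2 CPM, against 147, 117 and 125 CPM (-0.51 ± 0.15, adjusted p = 0.0133). Positive and negative libraries were apart for both, and the Eif4ebp1 call ended with the second title number as a term. The 1 higher gene was Eif3f (0.47 ± 0.14). Between 3 and 6 genes passed when 1 library was left out (3 without positive replicate 2 or 3), and 3 with the second title number as a term, which is 1 in the positive libraries and mostly 2 in the negative ones.

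In experiment 1 at 48 h 1 gene was higher and 1 lower (3.96% and 2.54% of all genes, 6.51% in either direction). Eif4e3 had 264, 228 and 230.2 CPM in positive cells, against 106, 93.5 and 94.3 CPM in negative cells (1.30 ± 0.19, adjusted p = 1.14e-05). In experiment 2 at this time it had 23.1, 22.7 and 22.95 CPM in positive cells, against 12.1, 14.4 and 14.0 CPM in negative cells (0.76 ± 0.32, not past the test). The positive libraries lay above the negative ones in both experiments. Between these groups 15 of 44 genes in experiment 1 and 16 of 43 in experiment 2 did not overlap. Eif2s3x was lower in experiment 1, at 55.1, 82.3 and 71.1 CPM in positive cells, against 127, 119 and 115 CPM in negative cells (-0.79 ± 0.21, adjusted p = 0.012), a call that ended without positive or negative replicate 1. The CD62L difference became lower from 48 to 72 h for 2 of 44 genes in experiment 1 and higher for none (1.7% and 0.547% of all genes, 2.24% in either direction), Eif4e3 (-1.12 ± 0.26) and Eif3c (-1.06 ± 0.28), and 0 to 3 passed as libraries were left out (0 without negative replicate 3 at 48 h or negative replicate 1 at 72 h). In experiment 2 it changed for none of 43 with edgeR or DESeq2, with 5 at an unadjusted p under 0.05, against 1.3% of all genes adjusted.

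**Figure D4:**
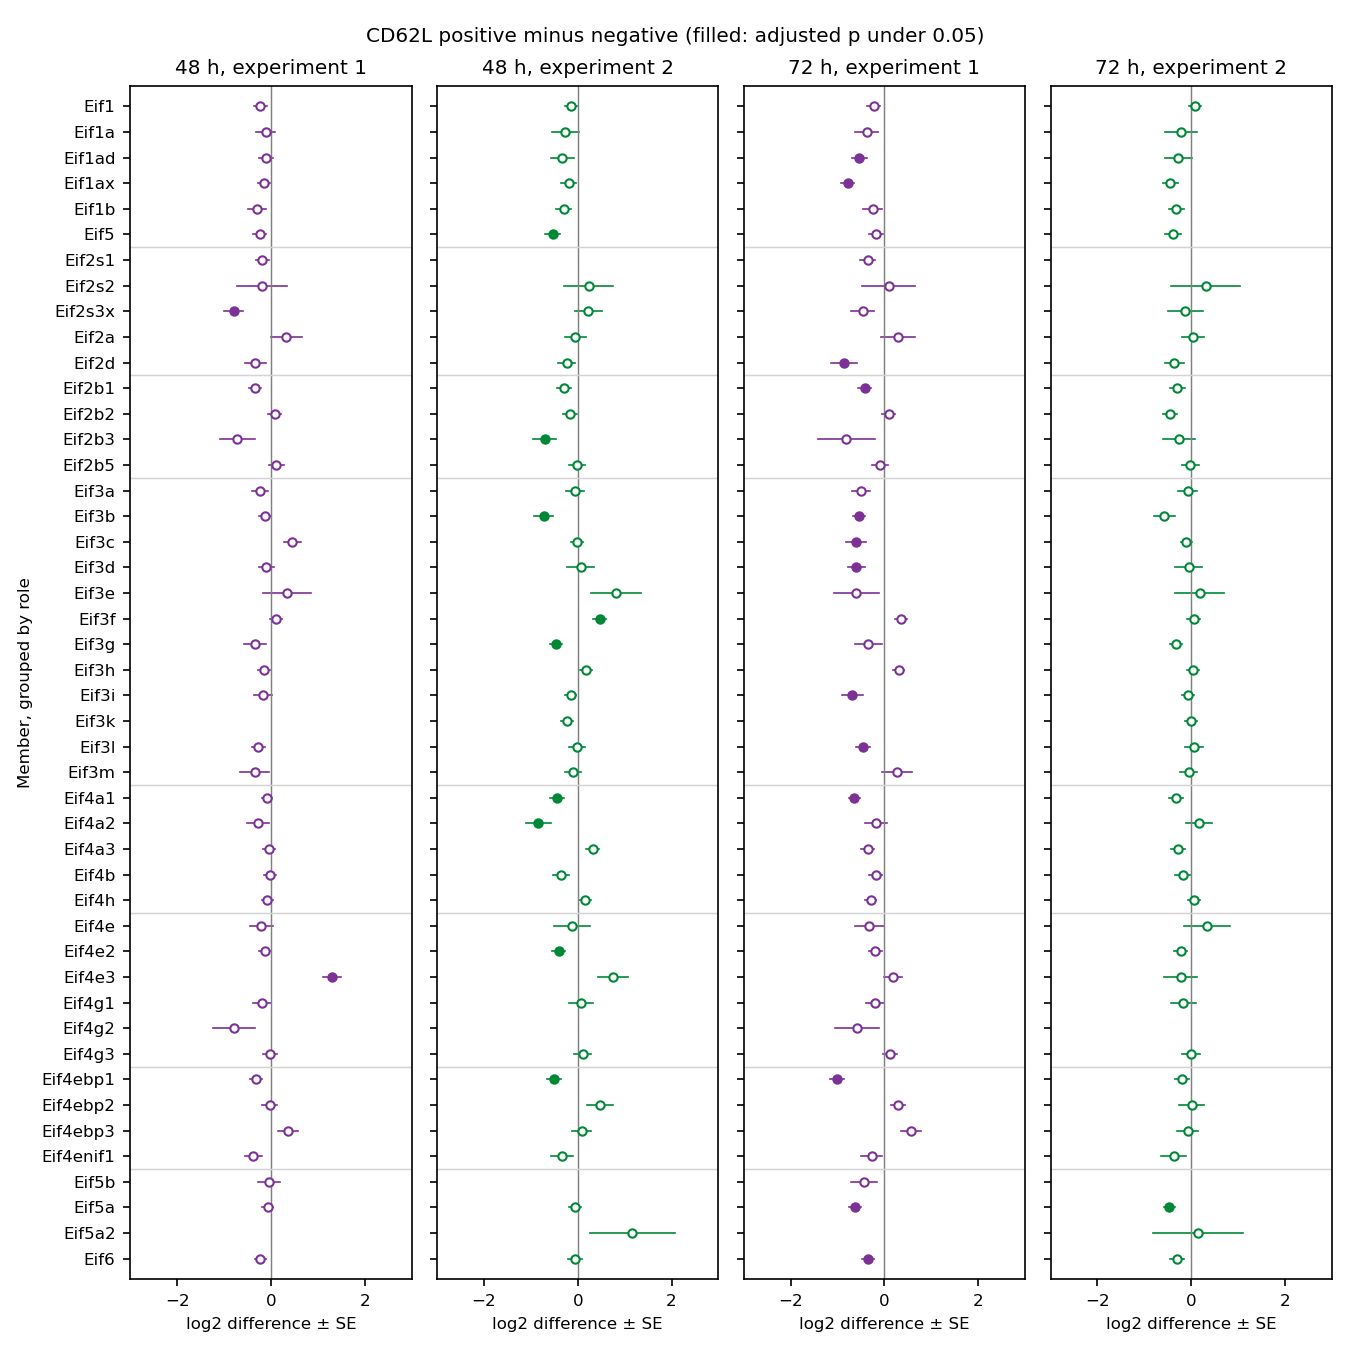
Log2 difference between CD62L positive and negative cells (points, ± SE) at 48 and 72 h in experiments 1 and 2, with filled points past the test and a blank where a gene was not tested. Filled points lie mostly left of 0, with 13 at 72 h in experiment 1 and 1 at 72 h in experiment 2, and Eif4e3 stands at 1.30 at 48 h in experiment 1.

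Against naive cells of experiment 1, most initiation factors were higher at 48 h, and fewer passed at 72 h. In CD62L positive cells at 48 h 33 of 44 rose and 1 fell (29.0% and 28.3% of all genes, 57.4% in either direction), and at 72 h 19 rose and 3 fell (18.6% and 19.0%, 37.6% in either direction). These 2 comparisons share the naive libraries, whose markers of other cells were given above, and the part of those cells in the differences was not tested. Eif2s1, hardly counted in experiment 2, had 415, 293 and 337 CPM at 48 h, against 0, 57.8 and 58.1 CPM in naive cells (2.76 ± 0.25, adjusted p = 1.16e-11). Eif4e had 55.1, 87.3 and 77.9 CPM at 48 h, against 0, 4.13 and 6.12 CPM in naive cells (3.91 ± 0.68, adjusted p = 2.06e-05). Activated and naive libraries were apart for both. Both values of 0 are from naive replicate 1, a library of 58750 counts in which 1 count stands at 15.6 CPM. Eif2b3 had 31 counts over the 3 libraries at 48 h and 0 in naive cells, which with a floor of 3 counts over the naive group makes it at least 2.55-fold higher. The scaffold gene Eif4g3 fell at 48 h (-1.37 ± 0.17) and at 72 h (-1.40 ± 0.17).

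Within activated cells of experiment 1, 31 genes were lower and 2 higher at 72 h than at 48 h, over positive and negative cells (27.3% and 25.5% of all genes, 52.8% in either direction). The 2 were Eif3h (0.33 ± 0.09) and Eif3f (0.23 ± 0.09), the second of which did not pass with DESeq2 or its size factors. Eif3h was also among the 3 genes higher at 72 h than at 18 h in experiment 2. Eif4a1 (-1.03 ± 0.08), Eif3b (-1.04 ± 0.09) and Eif4ebp1 (-1.10 ± 0.10) had large falls. In experiment 2, CD62L positive cells at 72 h had 15 genes above and 7 below naive cells (24.7% and 23.3% of all genes, 48.0% in either direction), with Eif4ebp1 (1.41 ± 0.16), Eif4h (1.07 ± 0.13) and Eif4a1 (1.01 ± 0.15) above and Eif4a2 (-1.35 ± 0.25) and Eif3g (-1.01 ± 0.12) below.

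Mature cells that had not been activated differed from naive cells in 7 of 44 genes (15.9%), no more than the 16.5% of all genes. Of the 7, 3 were higher and 4 lower (8.25% and 8.27% of all genes). Eif4a2 had 101, 126 and 141.5 CPM in mature cells, against 46.7, 20.6 and 73.4 CPM in naive cells (1.30 ± 0.33, adjusted p = 0.0056). Eif2s1 (1.02 ± 0.29) and Eif4e (2.60 ± 0.84) were the other 2 higher genes, and Eif4g3 (-0.93 ± 0.17), Eif1 (-0.69 ± 0.16), Eif4g1 (-0.68 ± 0.22) and Eif3b (-0.54 ± 0.15) were lower. Without naive replicate 2 the count was 2 and Eif4a2 and Eif1 did not pass, and the Eif4e call ended without any 1 of 5 of the 6 libraries. The B-cell, myeloid and red-cell markers were lower in the mature libraries, and their part in these differences was not tested.

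The tables disagreed on the level of many of these genes in the same kind of cell. In naive cells the mean level of Eif5a was 1520 CPM in experiment 1 and 1300 CPM in experiment 2, whereas Eif3k had 0 and 985 CPM, Eif3m 2.39 and 227 CPM, Eif3g 13.8 and 616 CPM, and Eif3i 22.3 and 582 CPM in experiments 1 and 2. The opposite held for Eif4g2, a scaffold relative of eIF4G, with 150 and 3.28 CPM, Eif2s1 with 38.6 and 0 CPM, and Eif5b with 17.5 and 0.53 CPM. Ribosomal protein genes showed a gap of the same kind, which took 0.575 to 1.1% of a library's counts in experiment 1 but 24.6 to 45.0% in experiment 2. No level is therefore compared between the tables here, and Eif2s1, Eif4g2 and Eif5b were tested in experiment 1 only, Eif3k and Eif5a2 in experiment 2 only.

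**Figure D5:**
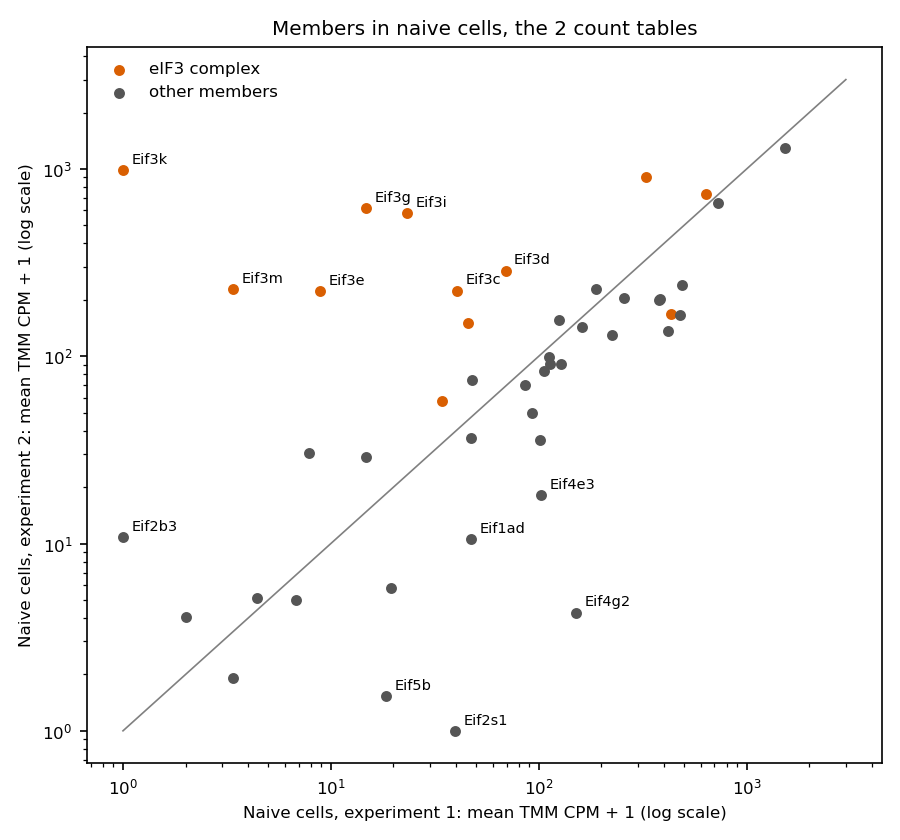
Mean TMM CPM + 1 of the 46 genes in naive cells in experiment 1 (x, log scale) and experiment 2 (y, log scale), with eIF3 subunit genes in orange, the line of equal levels in grey, and names for genes over 4-fold off the line. 7 named eIF3 genes lie above the line, Eif3k at 0 and 985 CPM, and Eif4g2, Eif2s1 and Eif5b lie far below it.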

How the data were processed

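RNA was measured in 3′ end libraries with molecular identifiers, per the labels' protocols. The authors deposited raw counts per gene in 1 table for each experiment. Per the submitters' processing notes, the tools were STAR 2.5.2b, HISAT 0.1.5, HTSeq 0.9.1, bcl2fastq 2.17.1.14 and FastQC 0.11.7, with build mm9. No source used here says which tool made which table, how identifiers were collapsed, or the annotation, strand and shared-read settings. Here, each table was fitted on its own with edgeR 4.0.16 (R 4.3.3): TMM scaling, filterByExpr with a minimum count of 10, and a robust quasi-likelihood test with 1 coefficient per group, over 8961 genes in experiment 1 and 9239 in experiment 2. P-values were adjusted by Benjamini-Hochberg over all genes tested, with a threshold of 0.05. The SE is the size of the log2 difference over the square root of F. Overlap of the libraries of 2 groups describes the values and is not a test, and its share over all genes was not taken. The fit was tested on simulated data. The 24 planned comparisons and 2 added after the data were seen were rerun with DESeq2 1.42.0 and the alternatives given in the closing section. Total counts per library limit the precision of genes with few counts. Pairs of libraries of a group also differed by more than counting alone makes. Their chi-square per degree of freedom was 1.28 to 4.02 in experiment 1 and 1.54 to 15 in experiment 2.

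The genes and the gene lists were chosen with earlier results of these data known. The naming rule allowed values in every library for the 3 largest rises and falls per comparison among called genes at or above the genes' median level, and for a fixed set of well-known factors. Library values are printed for some of these genes, and the others are given by log2 difference or by count. Eif2a and Eif4e3 fall outside that rule and were chosen after their values were seen. Promoters are RefSeq's for GRCm38.p6; 36 of 46 genes matched.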

Additional observations from a re-analysis of the deposited data

Results flagged for a closer look

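Values whose difference between the concentrations changed over the 4 times of experiment 2 stand out, by edgeR's quasi-likelihood test of the change (Benjamini-Hochberg adjusted p). Eif4ebp1 led with adjusted p = 1.3e-11, and the helicase gene Eif4a1 (2.6e-05), Eif1ax (4.2e-05), Eif2a (5.27e-05) and Eif2s3x (6.44e-05) followed. Then came Eif2d (0.000188), Eif1ad (0.000369), Eif1 (0.000593), Eif3m (0.00097), Eif2b1 (0.00257), Eif5a (0.00301) and Eif4a3 (0.00479). Eif3f (0.015), Eif2b5 (0.0162), Eif3h (0.0171), Eif4b (0.0197), Eif4e2 (0.0226), Eif4a2 (0.0277), Eif3c (0.0294), Eif3e (0.0476) and Eif5 (0.0479) lay nearer the threshold.

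In experiment 1 the CD62L difference changed between 48 and 72 h for Eif4e3 (adjusted p = 0.0193 in edgeR's quasi-likelihood test) and Eif3c (adjusted p = 0.0353).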

How the results depend on the processing

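No called difference changed direction under any alternative run, and 246 of 381 called differences of single genes passed under all of them. The second title number as a term ended 56 of 268, fitting the compared groups alone 46 of 375, no low-count filter 25, DESeq2 9, DESeq2's size factors 5 and leaving out ribosomal protein genes 2. For the count of initiation factor genes called, the second title number gave 4 at 30 h against 18 h (15 as reported), 9 at 72 h against 48 h at high concentration (19), 3 for the change of the concentration difference from 48 to 72 h (8) and 3 for CD62L at 48 h in experiment 2 (9). The compared groups alone gave 8 for CD62L at 72 h in experiment 1 (13), 2 at 48 h against 30 h at low concentration (5), 2 for concentration at 18 h (1) and 4 for CD62L at 48 h in experiment 2 (9). DESeq2 gave 4 for the CD62L change in experiment 1 (2), 13 for the concentration change from 48 to 72 h (8) and 2 for CD62L at 72 h in experiment 2 (1), and no filter gave 0 for concentration at 18 h (1). The cause was not tested. Leaving out 1 library at a time gave 2 to 8 for mature against naive, and, for CD62L, 1 to 2 at 48 h, 6 to 12 at 72 h and 0 to 3 for the change in experiment 1, and 3 to 6 at 48 h and 0 to 1 at 72 h in experiment 2. It gave 9 to 15 at 30 h against 18 h, 3 to 6 at 48 h against 30 h and 12 to 20 at 72 h against 48 h at low concentration, and, for concentration, 0 to 1 at 18 h, 2 to 5 at 30 h and 4 to 14 for the change from 48 to 72 h. Where 1 library of a group was left, it was assumed to vary like the other groups.

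Replicate numbers did not pair the libraries: the median correlation of same-numbered libraries was -0.0118 in experiment 1 and 0.00192 in experiment 2, and 6 of 18 and 14 of 38 libraries correlated best with their own number. With the replicate block 14 genes passed for CD62L at 72 h in experiment 1 (13 without it), no count moved by over 1.5 times, and 5 single calls ended. Depth limits the genes with few counts, such as Eif2s1 and Eif5b in experiment 2. It also limits naive replicate 1 of experiment 1, which held 58750 counts.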
